A study of Mus musculus with 6 samples.

Results

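Voltage-gated calcium channel subunits were followed in primary cultures of mouse ventral midbrain after knockdown of circRmst, which is a circular transcript of the Rmst locus. The set was chosen by gene name and holds 10 genes of the 42396 in the count tables, 8 for pore-forming subunits (Cacna1a, Cacna1b, Cacna1c, Cacna1d, Cacna1e, Cacna1g, Cacna1h and Cacna1i) and 2 for auxiliary subunits (Cacna2d1 and Cacnb4). All 10 were found under 1 entry each, and all 10 passed the filter on low counts that left 17439 genes for testing. The rule itself uses no measured value. Both groups were wild-type cells of embryos at embryonic day 14, plated at 150000 per well and infected on that day with a lentivirus at a multiplicity of 5, and RNA was taken at 3 days in vitro. The control virus carried a scramble hairpin (pll3.7-Scr2) and the knockdown virus a hairpin against circRmst (pll3.7-shRmstI). There were 3 control and 3 knockdown libraries of RNA depleted of ribosomal RNA. The labels speak of 3 independent cultures without saying which libraries share a culture, and each library pools 2 to 3 wells per the labels, so p-values measure the spread between these libraries, which may be partly technical. The comparison addresses what a lower level of circRmst does to the RNA of these cells. Back-spliced reads of circRmst were not analysed here, so the strength of the knockdown is not known from these values.

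Voltage-gated calcium channels open when the membrane is depolarised and let calcium into the cell, where it triggers transmitter release, shapes firing and starts signalling to the nucleus. The pore-forming subunit sets the type of current. L-type channels couple activity to gene expression and, in dopamine neurons of the midbrain, take part in pacemaking. P/Q-, N- and R-type channels serve mainly transmitter release, and T-type channels open at low voltage and support rhythmic and burst firing. The alpha2delta and beta subunits bring the L-, P/Q-, N- and R-type pores to the surface and tune their gating.

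Depth was high for these genes. The libraries held 27248934 to 43646521 counts, and the count of a single subunit gene in a single library ran from 1507 (Cacna1i) to 13644 (Cacna1e). At the lowest of these the counting error alone is about 2.58%, a limit that covers counting only, since PCR copies are not independent molecules. The cell type in the labels is dopamine neurons. The dopamine markers Th, the rate-limiting enzyme of dopamine synthesis, and Slc6a3, the dopamine transporter, were present at means of 13.6 and 8.30 FPKM (fragments counted relative to transcript length and library size). Markers of other cells were present as well. Gad1 and Gad2, which make GABA, were at 43.0 and 19.4 FPKM, and the glutamate transporter gene Slc17a6 was at 16.1 FPKM. The values therefore describe a mixed midbrain culture, in which fewer cells of a type and less RNA per cell cannot be told apart.

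The subunit genes lie apart in the genome (GRCm38) and are long. Of the pore-forming genes, the L-type genes lie at chr6:118587240-119197384 (Cacna1c) and chr14:30039941-30491156 (Cacna1d), both on the minus strand. The P/Q-type gene Cacna1a lies at chr8:84338631-84640251 on the plus strand. The N-type gene Cacna1b, at chr2:24603860-24763200, and the R-type gene Cacna1e, at chr1:154390806-154884785, lie on the minus strand. The T-type genes are the shortest of the set. Cacna1g lies at chr11:94408391-94474400 and Cacna1h at chr17:25374285-25436334, both on the minus strand, and Cacna1i at chr15:80287238-80398292 on the plus strand. Cacna2d1 lies at chr5:15934264-16374511 on the plus strand and Cacnb4 at chr2:52428320-52676609 on the minus strand. In the GENCODE M21 annotation the exons of 4 of the genes overlap exons of a gene on the other strand, Cacnb4 over 16.0% of its merged exon length, Cacna1d over 4.67%, Cacna1a over 3.81% and Cacna1h over 1.62%. Whether reads were counted by strand is not stated in the labels or headers, so reads of such a pair could not be kept apart. The overlapping genes were themselves low, at no more than 1.54 CPM (counts scaled to library size by TMM) in any library.

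Start-site sequence was listed by RefSeq (GRCm38.p6) for 7 of the 10 genes. The 250 bases upstream of a start are shown for Cacna1b, the most abundant of the set, and for Cacna2d1 and Cacnb4, the pair whose levels ran most alike over the 6 libraries. The stretches are chr2:24763153-24763402 (minus strand), chr5:15934441-15934690 (plus strand) and chr2:52676144-52676393 (minus strand). None of these starts is the outermost of its gene. The stretches of Cacna2d1 and Cacnb4 lie inside the annotated gene, and that of Cacna1b lies partly inside it. Cacnb4 has 2 other listed starts, and gene counts do not say which start was used. Each is written 5′ to 3′ on the strand of its gene, with GC boxes in capitals. The motif searched was GGGCGG or its reverse complement CCGCCC, and capitals merge where copies overlap.
Cacna1b: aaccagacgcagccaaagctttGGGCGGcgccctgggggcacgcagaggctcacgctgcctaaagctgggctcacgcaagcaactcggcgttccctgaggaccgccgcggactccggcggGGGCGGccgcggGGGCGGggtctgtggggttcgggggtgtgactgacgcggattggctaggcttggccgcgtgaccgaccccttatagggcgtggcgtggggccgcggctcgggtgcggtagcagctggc
Cacna2d1: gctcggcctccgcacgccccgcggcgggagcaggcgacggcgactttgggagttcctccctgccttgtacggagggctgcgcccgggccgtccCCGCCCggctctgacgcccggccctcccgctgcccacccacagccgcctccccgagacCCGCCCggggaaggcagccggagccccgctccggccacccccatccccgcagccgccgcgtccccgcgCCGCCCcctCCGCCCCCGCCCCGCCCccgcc
Cacnb4: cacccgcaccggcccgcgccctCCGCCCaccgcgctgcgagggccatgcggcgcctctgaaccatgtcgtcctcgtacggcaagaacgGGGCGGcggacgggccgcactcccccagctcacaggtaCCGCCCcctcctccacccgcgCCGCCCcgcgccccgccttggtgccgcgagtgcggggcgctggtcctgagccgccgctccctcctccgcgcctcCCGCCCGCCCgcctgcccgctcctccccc
The stretch of Cacna1b holds 3 GC boxes and 29 CG pairs, that of Cacna2d1 6 GC boxes and 36 CG pairs, and that of Cacnb4 6 GC boxes and 37 CG pairs. Over all 32851 listed starts, 32.7% hold a GC box in the same window, and the median number of CG pairs is 6. Of the other starts listed for these genes, 1 of 3 for Cacna1c holds GC boxes (6), 1 of 2 for Cacna1d holds them (5), and none is in the listed windows of Cacna1e and Cacna1i or at the other starts of Cacnb4. A match of letters is a description and not a site of binding.

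Per length of transcript, Cacna1b was the most abundant member and Cacna1i the least. The order of the 6-library means was Cacna1b (12.96 FPKM), Cacna2d1 (10.2), Cacna1e (9.62), Cacna1g (8.31), Cacna1h (7.40), Cacna1a (7.03), Cacna1c (4.83), Cacnb4 (4.02), Cacna1d (3.59) and Cacna1i (2.98). Cacna1b lay between 11.5 and 14.5 FPKM and did not overlap with the gene next in order. The gap between Cacna1a, at 5.68 to 7.63 FPKM, and Cacna1c, at 3.55 to 5.51 FPKM, also had no overlap. All other neighbours in the order overlapped in their ranges, although Cacna1g was above Cacna1h, and Cacna1c above Cacnb4, in 6 of 6 libraries. The middle of the order rests on the length assigned to each gene. With CPM per kilobase of merged GENCODE exons, tried after the data were seen, Cacna1b stayed first and Cacna1i last, Cacna1h came second, and Cacna1e moved from the third place to the sixth.

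**Figure D1:**
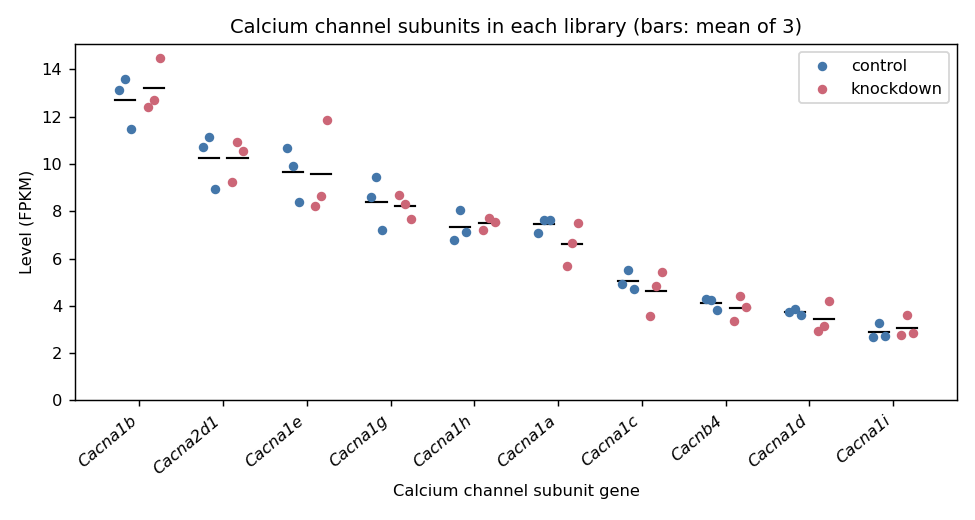
Level of each subunit gene in FPKM (vertical axis, linear, from 0), ordered by mean, with 3 control points (blue) and 3 knockdown points (red) per gene and a black bar at each mean of 3. Cacna1b stands highest at 11.5 to 14.5 FPKM, and the control and knockdown points of every gene share a range.

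The L-type genes spread widely among the knockdown libraries and little among the controls. Cacna1c, whose channel is the main L-type pore of brain and heart, was at 132, 144 and 127 CPM in control replicates 1, 2 and 3. In knockdown replicates 1, 2 and 3 it was at 93.7, 121 and 148 CPM. The knockdown libraries thus lay on both sides of the controls, with the lowest value of the 6 in knockdown replicate 1 and the highest in knockdown replicate 3. Group means were 134 ± 8.85 CPM for the controls and 121 ± 27.1 CPM for the knockdown (SD over 3 libraries). This is a log2 fold change of -0.15, with a 95% interval from -0.47 to 0.17 (edgeR quasi-likelihood test, unadjusted p = 0.32).

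Cacna1d, the L-type gene tied to pacemaking, was at 81.5, 83.1 and 77.7 CPM in the control replicates. It was at 63.8, 61.7 and 97.7 CPM in the knockdown replicates. Here knockdown replicates 1 and 2 lay below all controls and knockdown replicate 3 above them. The log2 fold change was -0.12, with an interval from -0.47 to 0.23. The control libraries of this gene differed little, with an SD of 2.78 CPM against 20.2 CPM among the knockdown libraries.

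Genes of the release-related channels followed a similar order of libraries. Cacna1a, the P/Q-type pore gene, was at 127, 139 and 140 CPM in the control libraries and 102, 116 and 146 CPM in the knockdown. Its knockdown replicates 1 and 2 lay below, and knockdown replicate 3 above, all 3 controls. Its log2 fold change was -0.16, with an interval from -0.44 to 0.12 (edgeR, unadjusted p = 0.244). Cacna1b, the N-type pore gene, was at 274, 280 and 236 CPM in the control libraries and 252, 254 and 313 CPM in the knockdown. Only knockdown replicate 3 lay outside the control range, above it, and the log2 fold change was 0.05 with an interval from -0.20 to 0.31. Cacna1e, the R-type pore gene, was at 295, 270 and 232 CPM in the control libraries and 221, 229 and 326 CPM in the knockdown. Its knockdown libraries again straddled the controls, and the log2 fold change was -0.04 with an interval from -0.38 to 0.29.

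Of the T-type genes, Cacna1g and Cacna1h had a narrower range in the knockdown than in the control, and Cacna1i did not. Cacna1g was at 139, 156 and 122 CPM in the control libraries and 143, 132 and 132 CPM in the knockdown, so that all 3 knockdown values lay inside the control range. Its log2 fold change was -0.03, with an interval from -0.27 to 0.20. Cacna1h was at 120, 143 and 130 CPM in the control libraries and 130, 133 and 139 CPM in the knockdown, also inside the control range. Its interval, from -0.18 to 0.25 around 0.04, was the narrowest of the set. Cacna1i was at 53.2, 65.2 and 54.2 CPM in the control libraries and 54.4, 68.1 and 59.0 CPM in the knockdown. Its knockdown replicate 2 lay above all 3 controls, and its log2 fold change was 0.07 with an interval from -0.20 to 0.34.

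Both auxiliary genes overlapped between the groups as well. Cacna2d1, an alpha2delta gene whose protein binds gabapentin, was at 154, 151 and 128 CPM in the control libraries and 120, 150 and 158 CPM in the knockdown. Its log2 fold change was -0.02, with an interval from -0.29 to 0.25. Cacnb4, a beta subunit gene, was at 65.2, 63.7 and 57.5 CPM in the control libraries and 53.0, 62.9 and 61.9 CPM in the knockdown. Its log2 fold change was -0.07, with an interval from -0.30 to 0.17. For either gene knockdown replicate 1 was the lowest library of the 6.

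No subunit gene differed between the groups past the threshold. By edgeR's quasi-likelihood test 0 of the 10 passed an adjusted p of 0.05, as did 0% of all genes, and each member's adjusted p was 1.00. At an unadjusted p under 0.05 there were 0 of 10, against 1.1% of all genes tested (191 genes). Over all genes DESeq2 called 1 and limma with voom 0, the latter with 192 at an unadjusted p under 0.05. The control and knockdown libraries overlapped in 10 of 10 members, while 5.2% of all genes had no overlap, 2.92% with the knockdown lower and 2.28% with it higher. The fold change was below 0 in 7 of 10 members, with a median of -0.04, and in 51.9% of all genes, with a median of -0.01. The intervals bound what these libraries allow. Over the 10 genes they reached at the lowest 0.721 of the control level, for Cacna1c, and at the highest 1.26 times the control level, for Cacna1i.

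**Figure D2:**
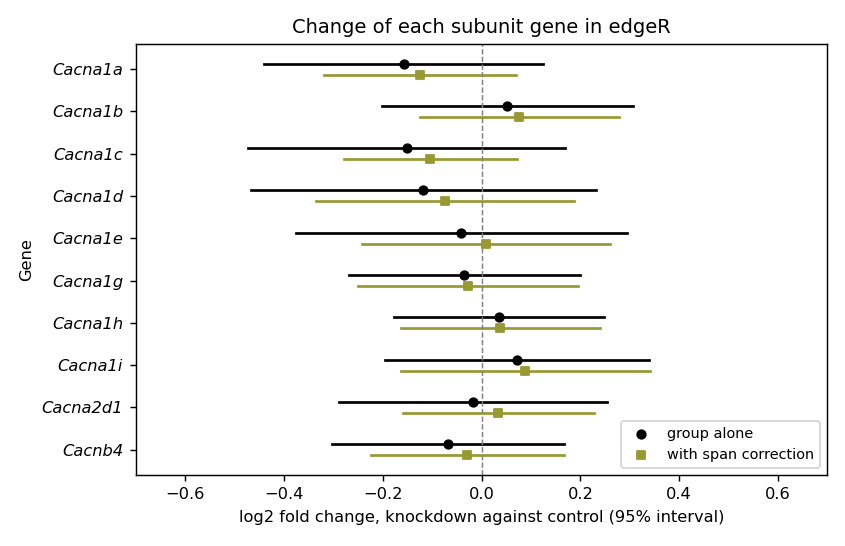
Log2 fold change of each subunit gene, knockdown against control (horizontal axis), with its 95% interval, from edgeR with the group alone (black circles) and after removal of each library's deviation by gene span (olive squares). Every interval crosses 0, and that of Cacna1c shortens from -0.47 to 0.17 to -0.28 to 0.07. The olive intervals leave out the error of the removed deviation, and a group difference that follows span is removed with it.

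The make-up of the pore-forming RNA was described as shares of the summed FPKM of the 8 genes, which do not depend on the scaling of a library. P/Q-, N- and R-type genes together made up 52.1% ± 1.38 in the control and 52.1% ± 2.51 in the knockdown (SD, n = 3 each). T-type genes made up 32.5% ± 1.27 and 33.6% ± 3.77, and L-type genes 15.4% ± 0.33 and 14.2% ± 1.52. Within the knockdown the shares spread in opposite directions. The T-type share was 36.3%, 35.3% and 29.3% in knockdown replicates 1, 2 and 3, against 31.3%, 33.9% and 32.3% in the control replicates. The L-type share was 12.6%, 14.4% and 15.7% in the knockdown replicates and 15.1%, 15.3% and 15.7% in the controls. Cacna1b alone held the largest share in every library, between 21.7% and 24.1%.

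**Figure D3:**
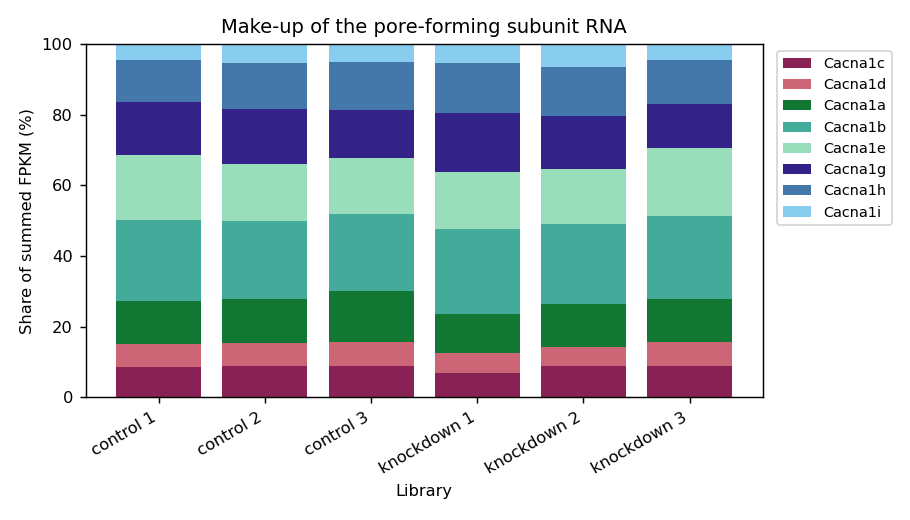
Share of each pore-forming gene in the summed FPKM of the 8 genes (vertical axis, percent) in each of the 6 libraries, L-type in reds, P/Q-, N- and R-type in greens and T-type in blues. The T-type blocks take 36.3% in knockdown replicate 1 and 29.3% in knockdown replicate 3, with the controls between.

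Libraries of the same group differed in these genes. The deviation of log2 CPM from the 6-library mean was averaged over each kind of subunit. For L-type genes it was -0.35, -0.18 and 0.29 in knockdown replicates 1, 2 and 3, and between 0.01 and 0.15 in the controls. For P/Q-, N- and R-type genes it was -0.21, -0.13 and 0.25 in the knockdown replicates and between -0.07 and 0.08 in the controls. For T-type genes it was -0.03, 0.06 and 0.01 in the knockdown and between -0.10 and 0.15 in the controls. The spread within groups was an SD of 0.26 log2 units for Cacna1d, 0.25 for Cacna1e and 0.24 for Cacna1c, above that of 93.9%, 92.9% and 91.9% of the 4917 genes whose mean reached 50 CPM. For the T-type genes Cacna1g, Cacna1h and Cacna1i it was 0.13, 0.10 and 0.16, at the 53.0, 28.9 and 71.5 percentiles of the same genes. For Cacna1b it was 0.16, at the 69.0 percentile.

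**Figure D4:**
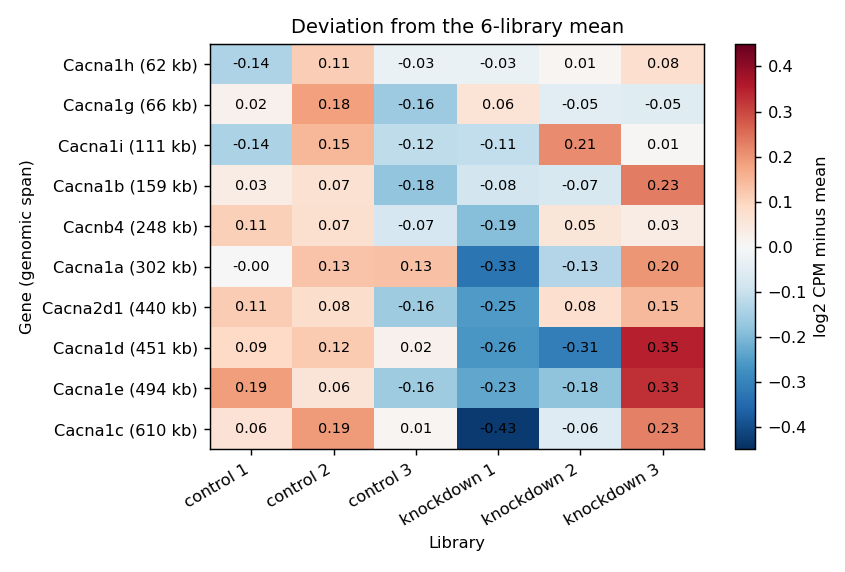
Deviation of each subunit gene from its 6-library mean in log2 CPM (colour and printed value), with libraries in columns and genes in rows ordered by genomic span in kb. The 7 genes from 159 kb up are below 0 in knockdown replicate 1 and above 0 in knockdown replicate 3, and the 3 shorter T-type genes lie within -0.11 and 0.08 in both.

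Gene span moved with this pattern in all genes. Over 517 other genes that span 300 kb or more, with a mean of at least 1 CPM, the median deviation was -0.35 log2 units in knockdown replicate 1 and 0.22 in knockdown replicate 3. Of these genes, 98.1% lay below their own mean in knockdown replicate 1 and 94.0% above it in knockdown replicate 3. Over 3741 genes under 10 kb the medians were 0.08 and -0.10, in the opposite order. Cacna1c, the longest member at 610 kb, was at -0.43 and 0.23 in the same libraries. Other members stood off the median of their span. Cacna1g, at 66.0 kb, was at 0.06 and -0.05, on the other side of 0 from the medians of -0.05 and 0.06 over genes of 60 to 150 kb. In knockdown replicate 3 Cacna1b was at 0.23 and Cacnb4 at 0.03, where the median over genes of 150 to 300 kb was 0.12. In knockdown replicate 2 Cacna1d was at -0.31, against a median of 0.06 over genes of 300 kb or more. The bins of span were chosen after the values were seen. Structural and nuclear RNAs differed between the same libraries, with a sum over the list of 68951 CPM in knockdown replicate 1 and 26206 CPM in knockdown replicate 3, against 48133 to 64441 CPM in the controls. The part of RNA quality in the pattern was not tested.

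**Figure D5:**
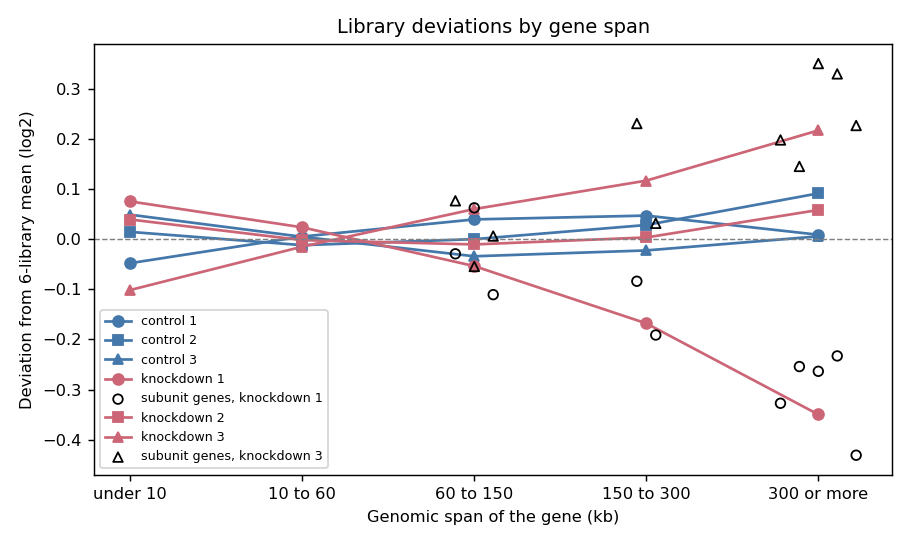
Median deviation from the 6-library mean in log2 CPM (vertical axis) of genes in 5 bins of genomic span in kb (horizontal axis), with a line per library, and the subunit genes in knockdown replicates 1 (open circles) and 3 (open triangles). The lines of knockdown replicates 1 and 3 part from 0.08 and -0.10 under 10 kb to -0.35 and 0.22 at 300 kb or more, and the open symbols of Cacna1g, at 0.06 and -0.05, lie across 0 from the lines.

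Removing from each library the smoothed deviation of other genes of the same span, a step added after the data were seen, narrowed the spread of the long members and left that of the T-type genes. The within-group SD went from 0.24 to 0.05 log2 units for Cacna1c, from 0.20 to 0.09 for Cacna1a, from 0.18 to 0.09 for Cacna2d1 and from 0.12 to 0.07 for Cacnb4. It went from 0.26 to 0.19 for Cacna1d and from 0.25 to 0.18 for Cacna1e, and knockdown replicate 2 stayed low in both, at -0.34 and -0.22. For Cacna1g, Cacna1h and Cacna1i it went from 0.13 to 0.14, from 0.10 to 0.11 and from 0.16 to 0.16. The fold changes stayed near 0, at -0.10 for Cacna1c (interval -0.28 to 0.07), -0.13 for Cacna1a (-0.32 to 0.07) and -0.07 for Cacna1d (-0.34 to 0.19). Over all genes 0 passed edgeR's test after this step, with 258 at an unadjusted p under 0.05. The smooth was fitted to each library without regard to group, so a group difference that follows span was removed with it. It was taken as known, so the intervals leave out its own error.

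The size of the change in Cacna1a, Cacna1c and Cacna1d depended on single libraries. Without knockdown replicate 3 the log2 fold changes were -0.30 for Cacna1a, -0.31 for Cacna1c and -0.35 for Cacna1d (edgeR, unadjusted p = 0.0215, 0.0369 and 0.00659, adjusted p = 1.00 for each). In that setting 451 of all 17706 genes tested had an unadjusted p under 0.05 in edgeR. Cacna1a, Cacna1c and Cacna1d each span more than 300 kb, as do Cacna1e and Cacna2d1. In the same setting Cacna1e was at -0.23 and Cacna2d1 at -0.09 (edgeR, unadjusted p = 0.0833 and 0.528). Of other genes that long, 98.1% lay below their mean in knockdown replicate 1. The part of span in these fold changes was not tested. Without knockdown replicate 1, Cacna1a, Cacna1c and Cacna1d were at -0.04, 0.00228 and -0.02. With knockdown replicates 1 and 3 both left out, Cacna1d was at -0.39 (edgeR, unadjusted p = 0.0234, adjusted p = 1.00), with a single knockdown library that was assumed to vary like the controls.

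Pairs of members differed in how closely they followed each other. Over the 6 libraries Pearson's r of log2 CPM was 0.94 for Cacna2d1 with Cacnb4, 0.93 for Cacna1a with Cacna1c and 0.90 for Cacna1b with Cacna1e. It was above 0 in 41 of 45 pairs, and -0.19 for Cacna1a with Cacna1g and -0.17 for Cacna1d with Cacna1i. These are descriptions over 6 libraries that share depth, scaling and the deviation by span. The genes whose levels were most like the mean of the members, among 14491 whose mean reached 1 CPM, were Ccdc171 (r = 0.995), Dcdc5 (0.994), Kalrn (0.991), Gm36298 (0.988) and Adra1a (0.984). In all, 175 genes reached 0.9 or more. Dcdc5 was low, at 0.620 to 1.43 CPM over the 6 libraries. Ccdc171 spans 341 kb, Dcdc5 329 kb, Kalrn 604 kb, Adra1a 136 kb and Gm36298 13.7 kb, where the median gene spans 23.9 kb. Kalrn, which encodes a guanine nucleotide exchange factor of dendritic spines, was at 344, 364 and 298 CPM in the control libraries and 272, 321 and 385 CPM in the knockdown. Its order of libraries, lowest in knockdown replicate 1 and highest in knockdown replicate 3, was that of Cacna1c and Cacna1a at its ends.

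Each member also had a gene most like it, picked as the highest r among 14491 genes over only 6 libraries, so a high r is no sign of a tie. For the L-, P/Q-, N- and R-type genes these were Rtl4 (Cacna1a, r = 0.988), Unc79 (Cacna1b, 0.994), Gm5643 (Cacna1c, 0.994), Gm3636 (Cacna1d, 0.990) and Hfm1 (Cacna1e, 0.991). For the T-type genes they were Vgll3 (Cacna1g, 0.996), Btrc (Cacna1h, 0.992) and Dpp4 (Cacna1i, 0.995). For the auxiliary genes they were Hdx (Cacna2d1, 0.991) and Chd5 (Cacnb4, 0.996). Rtl4, Dpp4 and Gm5643 were low, at 0.368 to 1.48, 0.829 to 1.33 and 0.873 to 2.94 CPM over the 6 libraries. Some of the genes most like a member were long and some short. Rtl4 spans 434 kb, Unc79 237 kb, Btrc 170 kb, Hdx 122 kb, Hfm1 86.5 kb and Dpp4 82.2 kb. Chd5 spans 51.5 kb, Vgll3 51.2 kb, Gm3636 21.9 kb and Gm5643, the gene most like the longest member, 1.73 kb. Between 44 genes, for Cacna1g, and 281 genes, for Cacna1c, reached 0.9 or more. Unc79 encodes a part of the sodium leak channel complex, and it was at 134, 136 and 118 CPM in the control libraries and 123, 122 and 149 CPM in the knockdown.

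The other genes of calcium channel subunits gave the same picture of levels without a call. Of 16 such genes 12 were tested, 6 lay above and 6 below the control, 0 passed the test, and the median log2 fold change was 0.01. Several exceeded the members per length. Cacng4, of the gamma family whose members also carry AMPA receptors, was at 48.9 FPKM, and the beta subunit genes Cacnb3 and Cacnb1 were at 28.6 and 16.1 FPKM against 4.02 FPKM for Cacnb4. The alpha2delta gene Cacna2d2 was at 12.8 FPKM and Cacna2d3 at 9.16 FPKM. Cacnb2 was at 3.26, Cacng2 at 10.2, Cacng3 at 7.07 and Cacng5 at 2.05 FPKM. Their log2 fold changes lay between -0.17 ± 0.16 (SE) for Cacng3 and 0.12 ± 0.17 for Cacng5. Cacna2d3 was lowest in knockdown replicate 1, at 47.2 CPM against 63.5 to 80.5 CPM in the other libraries.

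Subunit genes known from other tissues were near the limit of detection. Cacna1s, the L-type pore of skeletal muscle, was at 0.193 CPM in the control libraries and 0.267 CPM in the knockdown, and Cacna1f, that of the retina, at 0.167 and 0.158 CPM. Cacng1, the gamma subunit gene of skeletal muscle, was at 0.265 and 0.367 CPM, and Cacna2d4 at 0.423 and 0.406 CPM. Counts did not measure Cacng6, Cacng7 and Cacng8. Each has a second entry on an alternate sequence, and all entries of these genes were listed at 0 counts in every library. In the FPKM tables Cacng7 was at 8.63 to 11.97 FPKM and its second entry at 15.0 to 33.6 FPKM, so a count of 0 there is no sign of absence. None of the 10 members has a second entry.

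Genes around the channels were read from lists, where the share of all genes tested with a fold change below 0 was 51.9%. Of 32 genes of channel partners and the release machinery 31 were tested, with 11 above and 20 below the control, 0 called, and a median log2 fold change of -0.04. Calmodulin, the calcium sensor bound to the pores, was abundant, with Calm3 at 290 FPKM and 0.10 ± 0.12 (log2 fold change and SE) and Calm2 at 151 FPKM and -0.13 ± 0.10. The neurite protein gene Dpysl2, whose product binds N-type channels, was at 225 FPKM and 0.01 ± 0.12. Gem and Rem2 encode small GTPases that hold calcium channels down. Gem was at 0.781, 1.06 and 1.15 CPM in the control libraries and 0.758, 0.638 and 0.621 CPM in the knockdown, close to the limit of detection. Its libraries did not overlap, with the knockdown lower (1 of 31 genes tested, against 2.92% of all genes). The log2 fold change of Gem was -0.56 ± 0.33 (edgeR, unadjusted p = 0.119, adjusted p = 1.00). Rem2 had -0.22 ± 0.16.

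Of 28 genes of calcium-activated channels, kinases and phosphatases, all 28 were tested, with 8 above and 20 below, 0 called, and a median of -0.03. Camkk2, a kinase switched on by calmodulin, was at 79.3, 89.1 and 81.0 CPM in the control libraries and 90.1, 95.3 and 95.4 CPM in the knockdown. The libraries did not overlap, with the knockdown higher (1 of 28 genes tested, against 2.28% of all genes). Its log2 fold change was 0.17 ± 0.09 (edgeR, unadjusted p = 0.089, adjusted p = 1.00). Mef2d, a transcription factor gene downstream of calcium, had -0.17 ± 0.10, and the kinase gene Camk2g had 0.12 ± 0.10. The most abundant of the list per length were the calcineurin genes Ppp3r1 (42.8 FPKM) and Ppp3cb (33.7 FPKM) and the kinase gene Camk2b (32.1 FPKM), with log2 fold changes of -0.03, 0.03 and -0.02.

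Of 29 genes of calcium stores, pumps, exchangers and buffers 28 were tested, with 12 above and 16 below, 0 called, and a median of -0.01. The ryanodine receptor gene Ryr1, a release channel of calcium stores, was at 12.6, 12.7 and 14.1 CPM in the control libraries and 9.05, 12.1 and 11.9 CPM in the knockdown, with a log2 fold change of -0.25 ± 0.15. The inositol trisphosphate receptor genes Itpr2 and Itpr3 had -0.32 ± 0.21 and -0.34 ± 0.27, both below 5 CPM in every library. The libraries of Ryr1 and Itpr3 did not overlap, with the knockdown lower (2 of 28 genes tested, against 2.92% of all genes). The most abundant were Vdac1 of the outer mitochondrial membrane (111 FPKM), the store pump gene Atp2a2 (64.5 FPKM) and the plasma membrane pump gene Atp2b1 (28.8 FPKM), with log2 fold changes of 0.05, 0.01 and -0.01.

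Markers of cell types are given beside these counts, since channel genes differ between cell types. The sum over 15 neuron markers was 8346 to 9234 CPM in the control libraries and 7981 to 9365 CPM in the knockdown. It was lowest in knockdown replicate 1, where the sum over the 10 members was lowest too (1231 CPM, against 1304 to 1581 CPM in the other libraries). The highest libraries differed, with the marker sum highest in knockdown replicate 2, where the members' sum was 1329 CPM, and the members' sum highest in knockdown replicate 3. By the mean deviation of log2 CPM, the neuron markers were lowest in control replicate 3 (-0.117, against -0.114 in knockdown replicate 1). The sum over 12 dopamine neuron markers was 700.0 to 799.5 CPM in the control libraries and 687 to 800.6 CPM in the knockdown. Of 11 oligodendrocyte lineage genes tested 11 lay below the control, with a median of -0.26, and of 12 genes of dividing cells 10 lay below, with a median of -0.24, and 0 of either list passed the test (2 of 11 and 2 of 12 at an unadjusted p under 0.05 in edgeR, against 1.1% of all genes). Among the genes tested 5 of 6 for GABA neurons, 3 of 7 for glutamate neurons, 2 of 6 for serotonin neurons and 6 of 13 for astrocytes and radial glia lay above the control. For microglia it was 2 of 8, with a median of -0.23 and 2 genes at an unadjusted p under 0.05 in edgeR, and 0 passed the test. The libraries did not overlap, with the knockdown lower, in 2 of 8 microglia genes and 2 of 12 genes of dividing cells, against 2.92% of all genes. Above the control lay 2 of 5 for endothelium, 6 of 9 for mural cells and fibroblasts and 4 of 4 for red blood cells. Sums were low for microglia (25.0 to 30.6 CPM) and endothelium (18.3 to 23.4 CPM), where Aif1, Trem2 and Cldn5 were listed at 0 and have second entries. The part of cell make-up in the members' values was not tested.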

How the data were processed

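Gene expression was measured in 6 libraries. The deposited counts are whole numbers per gene, 1 table per library, and the authors did not pool them; the build was GRCm38 (mm10) per the submitters' processing notes, while no source used here names the aligner, the counter or the strand setting. The deposited tables of FPKM have Cufflinks columns per the file headers (version 2.2.1 per the submitters' processing notes).

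Counts were tested with edgeR 4.0.16 (R 4.3.3), quasi-likelihood test, filterByExpr, TMM scaling, group alone in the design, and Benjamini-Hochberg adjustment over 17439 genes at 0.05. A fold change is knockdown against control, and its SE follows from the F statistic. Levels between genes were compared by FPKM only, over 42363 of 42408 entries with a status of OK in every library and a single position. Deviations and likeness used log2 CPM with a prior count of 2. Positions in the FPKM tables matched the RefSeq table of GRCm38 for all 10 members. Genomic span came from that table for 14453 of 14491 genes, and was removed by a local regression with a smoothing span of 0.5, through the offset of the fit. The fits were tested on simulated data. No library repeated another: chi-square divided by its degrees of freedom was 12.8 to 91.4 for replicates of a group.

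Named genes were all members; of the other calcium lists the 3 with the smallest p, since none passed, the 3 with the highest FPKM and, for channel subunits, all with at least 1 CPM; and the genes most like the members. A gene that this rule names is not reported here. Members and lists were chosen with earlier results of these data known. Alternatives were other scalings, filters, DESeq2 1.42.0, limma 3.58.1 on counts (voom) and on log2 FPKM (pseudocount 0.1 or 1), the replicate number as a block, and leaving out libraries. The marker lists also covered GABA, glutamate and serotonin neurons, astrocytes and radial glia, microglia, endothelium, mural cells and fibroblasts, and red blood cells; 0 genes of these passed the test.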

Additional observations from a re-analysis of the deposited data

How the results depend on the processing

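Under the 11 other planned settings that keep all libraries, the 10 members kept their direction in 110 of 110 values, and none passed the threshold (lowest unadjusted p = 0.124, in edgeR, DESeq2 or limma). The span correction, which also keeps all libraries, was not among them. With the replicate block, 0 genes were called and 258 had an unadjusted p under 0.05 in edgeR, with Cacna1a at -0.17 and Cacna1c at -0.17. Same-numbered libraries correlated in their deviations at 0.32, 0.35 and 0.05 for replicates 1, 2 and 3. Libraries of different number correlated at -0.36 to 0.10, the highest being control replicate 3 with knockdown replicate 2. Replicates 1 and 2 were thus most alike within their number, and replicate 3 was not. The labels do not tie libraries to cultures, so the main fit used the group alone and the block was an alternative. Over all genes, 11 were called without a filter on low counts and 1 by DESeq2, against 0. Omitting knockdown replicates 1 and 3 together gave 6, and put Cacna1b at -0.0529, Cacna2d1 at 0.0601 and Cacnb4 at 0.0178. The span correction put Cacna1e at 0.00867 and Cacna2d1 at 0.0341. The cause of these reversals and calls was not tested. Leaving out each library in turn called 0 genes each time. It gave a log2 fold change from -0.30 to -0.04 for Cacna1a, -0.0487 to 0.112 for Cacna1b, -0.31 to 0.00228 for Cacna1c, -0.35 to -0.000606 for Cacna1d, -0.233 to 0.0604 for Cacna1e, -0.110 to 0.0682 for Cacna1g, -0.0197 to 0.116 for Cacna1h, -0.0217 to 0.185 for Cacna1i, -0.0878 to 0.0941 for Cacna2d1 and -0.11 to 0.00532 for Cacnb4. In 13 of 60 such values the sign turned. The precision of the members rests on the spread within both groups of 3 libraries, which edgeR draws toward the trend over all genes.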
